A study of Mus musculus with 24 samples.

Results

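Pxdn, Wnt7b, F13a1, Cd44 and Vwf are 5 genes of the 31062 features counted in a mouse ovarian cancer cell line, and they were selected on their RNA levels in the PBS libraries, which stood higher in Ifngr1-KO cells than in sgNTC cells. Because the measured PBS values chose them, every difference between the lines in PBS is given here as a description with no test. Tests between lines use the IFN-gamma libraries, which the choice did not use. No fold threshold came with the choice, and the genes were far from alike in PBS: in adherent culture the fold ran from 1.48 for Cd44 to 13.4 for Pxdn. In PBS every Ifngr1-KO library lay above every sgNTC library of the same culture for all 5 genes, as it did for 29% of tested genes in ULA and 22.5% in adherent culture, a count that the choice itself fixed.

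The cells were ID8 p53-/-, a mouse ovarian cancer line that lacks p53 in all groups. One line carried a knockout of Ifngr1, which encodes the receptor chain that binds interferon-gamma, and the other, sgNTC, carried a non-targeting control. Each line was grown in ultra-low attachment (ULA) wells, where cells cannot fasten to the plastic, or in regular adherent wells. Recombinant mouse IFN-gamma at 100 ng/ml or its PBS vehicle was given 24 hours after seeding, and cells were harvested 48 hours after seeding. The 8 groups, with 3 biological replicates each, were Ifngr1-KO ULA with IFN-gamma and with PBS, Ifngr1-KO adherent with IFN-gamma and with PBS, sgNTC ULA with IFN-gamma and with PBS, and sgNTC adherent with IFN-gamma and with PBS. A dead-cell removal step was applied to ULA samples alone, so that step and the culture cannot be told apart. The labels name 1 line per genotype without saying whether either is a single clone, so the knockout and any other difference between these lines cannot be told apart.

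Pxdn encodes peroxidasin, a secreted haem peroxidase that cross-links collagen IV in basement membranes. Wnt7b is a secreted Wnt ligand, read by Frizzled receptors with Lrp5 or Lrp6 and able to stabilise beta-catenin. F13a1 encodes the A subunit of coagulation factor XIII, a transglutaminase that cross-links fibrin, known mainly from macrophages and megakaryocytes. Vwf encodes von Willebrand factor, a multimeric glycoprotein that tethers platelets and carries factor VIII, and is a classic product of endothelium and megakaryocytes. Cd44 encodes a cell-surface receptor for hyaluronan, made in many splice forms that gene-level counts do not separate.

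In the GRCm38 build the genes lie on 5 chromosomes. Pxdn spans chr12:29937608-30017658 on the plus strand, Wnt7b chr15:85535437-85582473 on the minus strand, F13a1 chr13:36867178-37050244 on the minus strand, Cd44 chr2:102811141-102901665 on the minus strand and Vwf chr6:125546774-125686679 on the plus strand. RefSeq start-site windows, reaching from 250 bases before to 50 after a start on GRCm38.p6, were found for 3 of the 5. All 3 are shown, F13a1 at the first of its listed starts. Levels of Pxdn and F13a1 followed each other more closely across the groups than either followed Cd44. The capital letter marks the first transcribed base.
Pxdn, chr12:29937786-29938085, plus strand: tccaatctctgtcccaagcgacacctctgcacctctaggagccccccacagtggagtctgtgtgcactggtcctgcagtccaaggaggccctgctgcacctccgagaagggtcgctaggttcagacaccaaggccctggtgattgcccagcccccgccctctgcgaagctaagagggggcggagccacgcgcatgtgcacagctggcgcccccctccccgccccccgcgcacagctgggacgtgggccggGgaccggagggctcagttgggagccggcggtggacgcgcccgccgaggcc
F13a1, chr13:37050195-37050494, minus strand: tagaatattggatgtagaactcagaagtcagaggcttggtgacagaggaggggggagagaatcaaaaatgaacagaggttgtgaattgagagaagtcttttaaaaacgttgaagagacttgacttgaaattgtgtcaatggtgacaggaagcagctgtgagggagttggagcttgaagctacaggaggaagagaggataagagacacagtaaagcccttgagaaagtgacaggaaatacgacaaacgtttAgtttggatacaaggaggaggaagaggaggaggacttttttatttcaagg
Cd44, chr2:102901616-102901915, minus strand: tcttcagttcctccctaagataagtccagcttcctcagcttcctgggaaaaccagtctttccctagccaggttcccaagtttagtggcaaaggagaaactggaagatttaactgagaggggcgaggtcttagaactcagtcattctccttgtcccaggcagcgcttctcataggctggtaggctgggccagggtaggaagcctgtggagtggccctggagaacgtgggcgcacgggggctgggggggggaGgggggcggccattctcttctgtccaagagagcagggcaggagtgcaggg

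The window of Pxdn was 70% G or C, that of Cd44 58% and that of F13a1 42.7%, against a median of 52.7% over all 32851 windows. A second F13a1 start, at chr13:37049164-37049463, was 54.7% G or C. Each window was searched on both strands for a GAS element (TTCNNNGAA), an ISRE core (GAAANNGAA), an AP-1 site (TGANTCA), a TEAD site (GGAATG) and a TCF/LEF site (ATCAAAG). None of these sequences occurred in any of the 4 windows. Over all windows they occurred in 8.3% for GAS, 8.56% for the ISRE core, 7.81% for AP-1, 14.7% for TEAD and 3.73% for TCF/LEF.

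The 24 libraries held 33494774 to 63154942 counts. Ifngr1 checked the labels: with IFN-gamma it averaged 13.8 ± 0.566 CPM in Ifngr1-KO ULA cells against 35.0 ± 0.937 CPM in sgNTC ULA cells, and 15.9 ± 1.48 CPM in Ifngr1-KO adherent cells against 45.7 ± 2.1 CPM in sgNTC adherent cells (SD, n = 3 each). CPM is the count scaled to a TMM-adjusted library total of 1000000. Ifngr1 RNA in Ifngr1-KO cells was thus 39.4% of the sgNTC level in ULA culture and 34.8% in adherent culture, lower in every library of that line. Mitochondrially encoded genes took 3.31% to 3.87% of counts in Ifngr1-KO ULA libraries against 5.09% to 6.12% in sgNTC ULA libraries, and 1.96% to 2.45% in Ifngr1-KO adherent libraries against 2.49% to 2.94% in sgNTC adherent libraries. The part of this share in the differences between lines was not tested. Ifngr1-KO ULA IFN-gamma replicate 2 and Ifngr1-KO adherent PBS replicate 3 stood farthest from their group. Without the first of these, the line differences in ULA culture with IFN-gamma were 4.17 for Pxdn, 6.40 for Wnt7b, 3.51 for F13a1, 1.50 for Cd44 and 2.05 for Vwf on the log2 scale, against 4.17, 6.43, 3.47, 1.51 and 1.97 with it. Without the second, those in adherent culture with PBS were 3.81, 3.63, 3.34, 0.59 and 2.70 in the same order of genes, against 3.75, 3.70, 3.31, 0.57 and 2.55 with it. All 5 genes passed the filter on low counts, which kept 14622 genes.

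**Figure D1:**
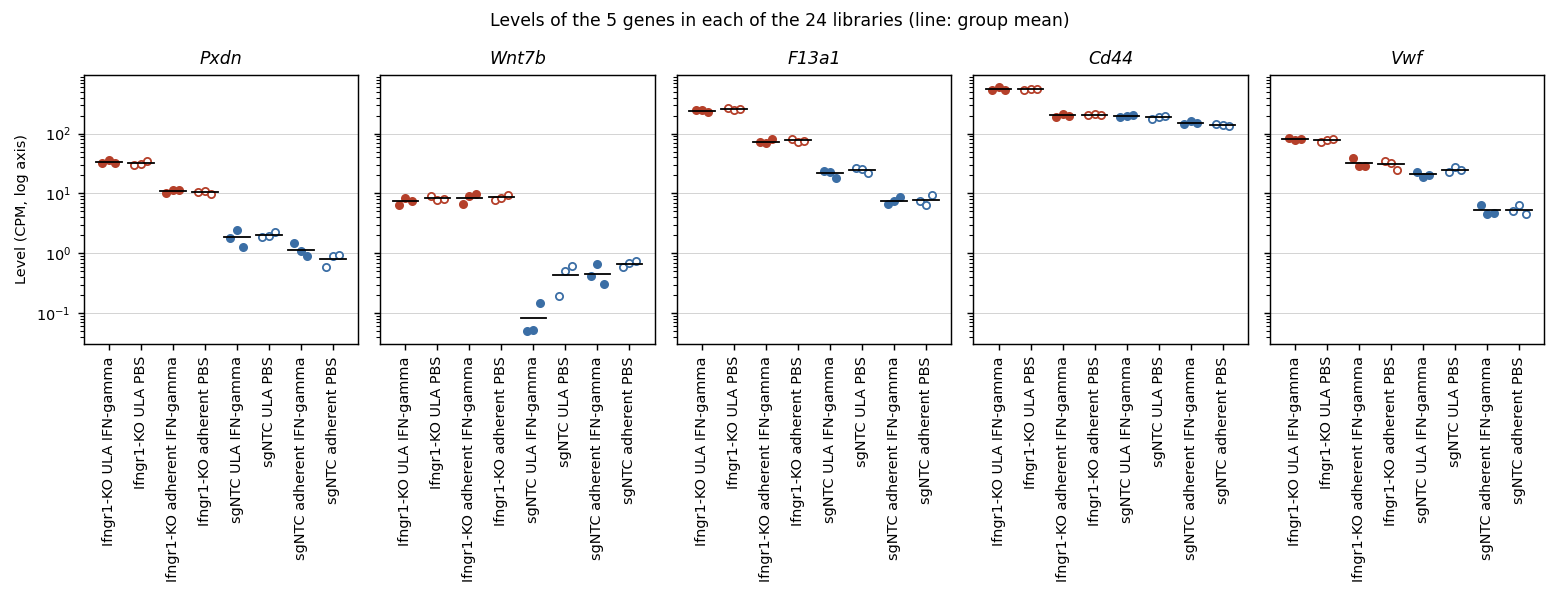
Level of each gene in every library, in CPM on a log axis; red points are Ifngr1-KO and blue points sgNTC libraries, filled points received IFN-gamma and open points PBS, and the short line is the mean of the 3 libraries of a group. For each gene but Cd44 and Vwf every Ifngr1-KO library lies well above every sgNTC library, while for those 2 the adherent Ifngr1-KO libraries lie close to the ULA sgNTC libraries.

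With IFN-gamma, all 5 genes were higher in Ifngr1-KO than in sgNTC cells in both cultures, and within a culture no library of one line overlapped with the other. The excess ran from 1.33-fold (Cd44) to 18.5-fold (Wnt7b) in adherent culture and from 2.84-fold (Cd44) to 86.4-fold (Wnt7b) in ULA culture. Tests used edgeR's quasi-likelihood fit with Benjamini-Hochberg adjustment over all 14622 genes, and a gene is called, or said to rise or fall, at an adjusted p under 0.05. Differences between the lines were widespread: 20.2% of tested genes were called higher in Ifngr1-KO cells in adherent culture with IFN-gamma and 27.6% in ULA culture, and 23.1% and 27.2% were called lower. Groups without overlap, all Ifngr1-KO libraries above, were seen for 25.4% of genes in adherent and 29.2% in ULA culture. By size of fold, Wnt7b ranked 24th, F13a1 52nd, Pxdn 58th, Vwf 87th and Cd44 2283rd of the 14622 in adherent culture, and Wnt7b 4th, Pxdn 15th, F13a1 24th, Vwf 145th and Cd44 278th in ULA culture.

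**Figure D2:**
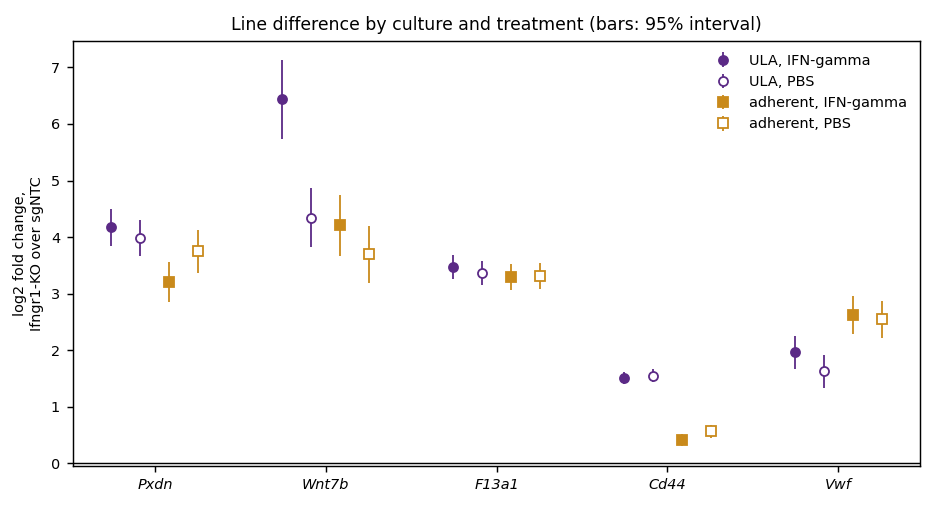
Log2 fold change of Ifngr1-KO over sgNTC for each gene, with circles for ULA and squares for adherent culture, filled symbols for IFN-gamma and open symbols for PBS, and 95% intervals of the fit. F13a1 sits between 3.29 and 3.47 in all 4 settings, Cd44 is at 1.51 and 1.55 in ULA and at 0.41 and 0.57 in adherent culture, and the PBS values are a description because they chose the genes.

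Pxdn, the collagen IV cross-linking enzyme, was at 32.0, 35.9 and 32.2 CPM in Ifngr1-KO ULA cells with IFN-gamma, against 1.83, 2.49 and 1.25 CPM in sgNTC ULA cells with IFN-gamma. In adherent culture it was at 10.1, 11.4 and 11.2 CPM in Ifngr1-KO cells with IFN-gamma, against 1.48, 1.08 and 0.902 CPM in sgNTC cells with IFN-gamma. The level in Ifngr1-KO cells was 18.0-fold that in sgNTC cells in ULA culture and 9.26-fold in adherent culture, and the sgNTC values rested on only 30 to 97 counts a library. The log2 difference was 4.17 ± 0.161 (SE) in ULA culture (adjusted p 4.11e-21 by edgeR's quasi-likelihood test) and 3.21 ± 0.175 in adherent culture (adjusted p 9.09e-17). In PBS it was at 30.3, 30.6 and 35.0 CPM in Ifngr1-KO ULA cells against 1.89, 1.93 and 2.30 CPM in sgNTC ULA cells, and at 10.5, 11.2 and 9.83 CPM in Ifngr1-KO adherent cells against 0.596, 0.901 and 0.920 CPM in sgNTC adherent cells. The PBS differences, which chose the gene, were 3.98 in ULA and 3.75 in adherent culture on the log2 scale. From highest to lowest the groups ran Ifngr1-KO ULA, Ifngr1-KO adherent, sgNTC ULA and sgNTC adherent. Overlap of neighbouring groups occurred between the treatments within a line and culture, and between sgNTC ULA and sgNTC adherent cells with IFN-gamma.

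The basement membrane genes that share peroxidasin's location went both ways. Of 24 genes on that list, 20 were tested. With IFN-gamma, 9 rose and 5 fell in Ifngr1-KO ULA cells against sgNTC ULA cells (list median 0.16 on the log2 scale, against -0.03 over all tested genes), and 7 rose and 5 fell in adherent culture (-0.04 against -0.01). Over all tested genes 27.6% were called higher and 27.2% lower in ULA culture, and 20.2% and 23.1% in adherent culture. These shares stand beside every list below, and whether any list differed from them was not tested. The laminin gamma-1 chain gene Lamc1 rose by 0.67 in ULA and 0.82 in adherent culture. Lama5, a laminin alpha chain, rose by 0.91 in ULA culture, and Sparc, a collagen-binding matricellular protein, by 0.67 there. In adherent culture the collagen IV chain gene Col4a5 fell by 0.43. Col4a1, a chain of the substrate of peroxidasin, was at 85.2 CPM in Ifngr1-KO ULA cells against 77.0 CPM in sgNTC ULA cells (adjusted p 0.0641) and 56.1 CPM in Ifngr1-KO adherent cells against 61.8 CPM in sgNTC adherent cells (adjusted p 0.0938). It was looked at after its values were known.

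Wnt7b, the Wnt ligand, was at 6.32, 8.26 and 7.60 CPM in Ifngr1-KO ULA cells with IFN-gamma, against 0.0495, 0.0512 and 0.145 CPM in sgNTC ULA cells with IFN-gamma. Those sgNTC values came from 2, 2 and 6 counts, and as each mate of a read pair was counted, 2 counts can come from a single fragment. In adherent culture it was at 6.78, 8.95 and 9.67 CPM in Ifngr1-KO cells with IFN-gamma, against 0.410, 0.656 and 0.301 CPM in sgNTC cells with IFN-gamma. The gene was thus near the detection limit in sgNTC cells and moderate in Ifngr1-KO cells. The log2 difference was 6.43 (95% interval 5.74 to 7.13) in ULA culture (adjusted p 2.98e-17) and 4.21 (3.67 to 4.74) in adherent culture (adjusted p 3.80e-15). In PBS it was at 9.21, 7.89 and 8.10 CPM in Ifngr1-KO ULA cells against 0.197, 0.501 and 0.604 CPM in sgNTC ULA cells, and at 7.88, 8.38 and 9.55 CPM in Ifngr1-KO adherent cells against 0.596, 0.676 and 0.736 CPM in sgNTC adherent cells. The PBS differences were 4.34 and 3.70. The 4 Ifngr1-KO groups overlapped one another, from 8.60 CPM on average in adherent PBS down to 7.39 CPM in ULA with IFN-gamma, and only the sgNTC ULA group with IFN-gamma stood clear of its neighbour at the low end.

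Per length, in CPM divided by exon length in kilobases (RPKM), Wnt7b was a minor Wnt ligand in these cells even where it was high. With IFN-gamma it ranked 5th of 19 ligand genes in Ifngr1-KO ULA cells at 1.51 RPKM against 12th in sgNTC ULA cells at 0.0167 RPKM, and 4th in Ifngr1-KO adherent cells at 1.73 RPKM against 8th in sgNTC adherent cells at 0.0930 RPKM. Its share of the summed ligand RPKM was 1.13% in Ifngr1-KO ULA cells against 0.0152% in sgNTC ULA cells, and 1.96% in Ifngr1-KO adherent cells against 0.107% in sgNTC adherent cells. The sum itself was 133 RPKM in Ifngr1-KO ULA cells against 110 RPKM in sgNTC ULA cells, most of it from Wnt10a and Wnt6. Of the 18 other ligand genes 10 were tested: with IFN-gamma, 4 rose and 1 fell in ULA culture (median 0.32 against -0.03 over all genes) and 4 rose and none fell in adherent culture (0.51 against -0.01). Wnt4 rose by 1.61 in ULA and 1.65 in adherent culture, and Wnt11 by 1.25 and 0.50. Wnt10a rose by 0.52 in ULA culture and Wnt10b by 1.60 in adherent culture. Wnt6 was the ligand that fell in ULA culture, by 0.25 with overlapping libraries (adjusted p 0.0342). Wnt7a, the nearest relative of Wnt7b, had at most 2 counts in any library.

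**Figure D3:**
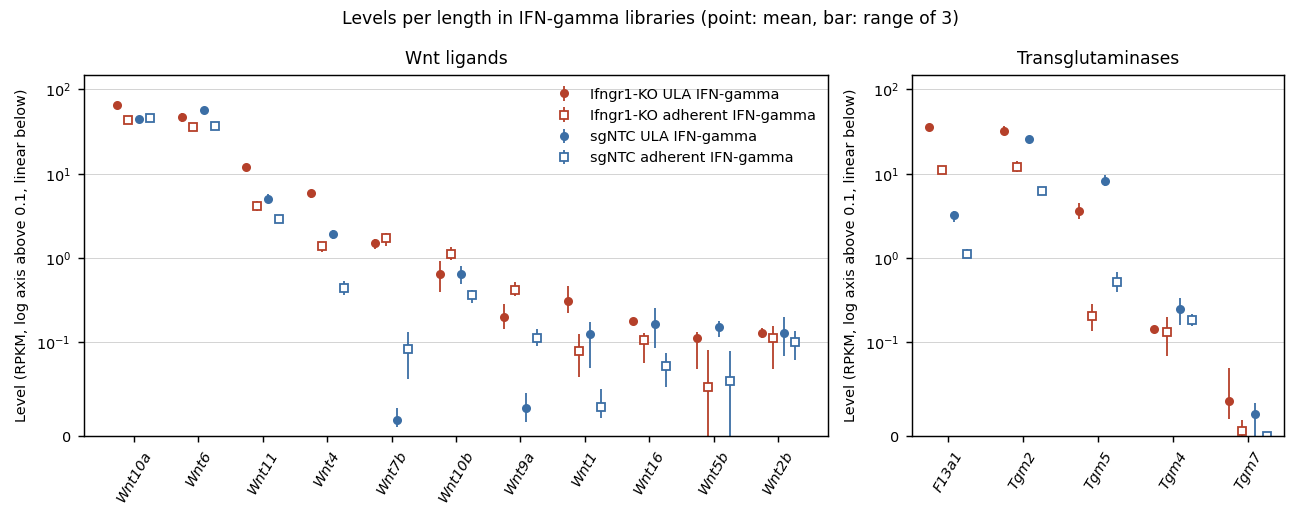
Levels per length (RPKM, log axis above 0.1 and linear below) of Wnt ligand genes and transglutaminase genes that reached 0.1 RPKM in a group, in IFN-gamma libraries; points are means and bars the range of 3 libraries, red for Ifngr1-KO and blue for sgNTC, circles for ULA and squares for adherent culture. Wnt7b is 5th among ligands in Ifngr1-KO ULA cells, below Wnt10a, Wnt6, Wnt11 and Wnt4, and F13a1 is level with Tgm2 in Ifngr1-KO cells and below it in sgNTC cells.

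Genes for Wnt secretion and reception were called in both directions. Of 13 tested out of 19, 3 rose and 6 fell in Ifngr1-KO ULA cells against sgNTC ULA cells with IFN-gamma (median -0.21 against -0.03 over all genes), and 2 rose and 7 fell in adherent culture (-0.29 against -0.01). Over all tested genes 27.2% were called lower in ULA and 23.1% in adherent culture, and whether the list's share differed from these was not tested. The receptor gene Fzd4 fell by 1.08 in ULA and 1.01 in adherent culture. In ULA culture the receptor gene Ror1 fell by 1.83 and Wls, which carries Wnt proteins to the surface, by 0.40. In adherent culture Fzd5 fell by 0.67 and Adgra2, a Wnt7 co-receptor in brain endothelium, by 1.28. Fzd5 lay the other way in ULA culture, at 74.6 CPM in Ifngr1-KO cells against 66.0 CPM in sgNTC cells. Fzd3, Fzd10, Ror2 and Reck, on the same list, had no count in any library. Of 17 Wnt target and feedback genes 9 were tested, and 4 rose and 1 fell in ULA culture (median 0.47 against -0.03) while 1 rose and 1 fell in adherent culture (-0.05 against -0.01). Axin2, Lef1, Nkd1, Sp5, Notum, Dkk1, Sfrp1 and Sfrp2 were not tested, with at most 14 counts in any library of either line. Ccnd1, the cyclin D1 gene, rose by 1.32 in ULA and 0.28 in adherent culture, and Apcdd1, a Wnt inhibitor, by 0.67 in ULA culture. Rnf43, a ubiquitin ligase that removes Frizzled receptors, fell by 2.02 in ULA and 2.73 in adherent culture. Its adherent level was low, at 0.299 CPM in Ifngr1-KO cells against 1.94 CPM in sgNTC cells.

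F13a1, the factor XIII transglutaminase, was at 244, 248 and 231 CPM in Ifngr1-KO ULA cells with IFN-gamma, against 24.1, 23.0 and 18.3 CPM in sgNTC ULA cells with IFN-gamma. In adherent culture it was at 71.2, 69.3 and 80.9 CPM in Ifngr1-KO cells with IFN-gamma, against 6.71, 7.36 and 8.60 CPM in sgNTC cells with IFN-gamma. The ratio of the lines was similar in both cultures, at 11.1-fold in ULA and 9.81-fold in adherent culture. The log2 difference was 3.47 ± 0.104 (SE) in ULA culture (adjusted p 4.77e-19) and 3.29 ± 0.114 in adherent culture (adjusted p 1.58e-17). In PBS it was at 265, 244 and 255 CPM in Ifngr1-KO ULA cells against 26.5, 25.5 and 22.3 CPM in sgNTC ULA cells, and at 81.5, 73.1 and 75.9 CPM in Ifngr1-KO adherent cells against 7.47, 6.42 and 9.51 CPM in sgNTC adherent cells. The PBS differences were 3.36 and 3.31. The order of groups was that of Pxdn, and libraries overlapped between the treatments of one line and culture and nowhere else.

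Among 8 transglutaminase genes F13a1 ranked 1st per length in Ifngr1-KO ULA cells with IFN-gamma, at 35.8 RPKM, against 3rd in sgNTC ULA cells, at 3.23 RPKM. In adherent culture with IFN-gamma it ranked 2nd in Ifngr1-KO cells, at 10.95 RPKM, and also 2nd in sgNTC cells, at 1.12 RPKM. It made up 49.6% of the summed transglutaminase RPKM in Ifngr1-KO ULA cells against 8.55% in sgNTC ULA cells, and 46.6% in Ifngr1-KO adherent cells against 13.7% in sgNTC adherent cells. Tgm2, tissue transglutaminase, rose by 0.32 in Ifngr1-KO ULA cells and by 0.94 in Ifngr1-KO adherent cells, while Tgm5, an epidermal transglutaminase, fell by 1.17 and 1.32. These were the 2 calls among 4 tested of the 7 other family members, in each culture.

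Vwf, the platelet-tethering glycoprotein, was at 83.8, 78.0 and 82.5 CPM in Ifngr1-KO ULA cells with IFN-gamma, against 23.2, 18.9 and 20.5 CPM in sgNTC ULA cells with IFN-gamma. In adherent culture it was at 39.5, 28.6 and 28.8 CPM in Ifngr1-KO cells with IFN-gamma, against 6.39, 4.59 and 4.63 CPM in sgNTC cells with IFN-gamma. All Ifngr1-KO libraries lay above all sgNTC libraries of the same culture, but sgNTC ULA cells came near to Ifngr1-KO adherent cells. The log2 difference was 1.97 ± 0.141 (SE) in ULA culture (adjusted p 7.05e-11) and 2.62 ± 0.161 in adherent culture (adjusted p 9.68e-12). In PBS it was at 72.7, 78.1 and 80.0 CPM in Ifngr1-KO ULA cells against 22.8, 27.6 and 24.3 CPM in sgNTC ULA cells, and at 35.3, 32.6 and 24.7 CPM in Ifngr1-KO adherent cells against 5.01, 6.36 and 4.51 CPM in sgNTC adherent cells. The PBS differences were 1.63 and 2.55. The Ifngr1-KO adherent PBS and sgNTC ULA PBS groups overlapped, which no other gene of the 5 showed between lines in PBS.

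The coagulation and fibrinolysis genes around F13a1 and Vwf did not share their direction. Of 28 listed, 17 were tested: with IFN-gamma, 6 rose and 7 fell in Ifngr1-KO ULA cells against sgNTC ULA cells (median -0.74 against -0.03 over all genes), and 2 rose and 5 fell in adherent culture (-0.37 against -0.01). The shares over all tested genes were 27.6% higher and 27.2% lower in ULA culture, and 20.2% and 23.1% in adherent culture. Anxa2, an annexin that binds plasminogen and its activator, rose by 1.09 in ULA and 0.62 in adherent culture. The urokinase receptor gene Plaur rose by 1.46 in ULA culture and the protein C receptor gene Procr by 1.07. Plaur lay the other way in adherent culture, at 88.6 CPM in Ifngr1-KO cells against 115 CPM in sgNTC cells. In adherent culture Plat, tissue plasminogen activator, fell by 1.89. Tfpi, the tissue factor pathway inhibitor, fell there by 2.56, at 0.232 CPM in Ifngr1-KO cells against 1.38 CPM in sgNTC cells. F13b, the partner subunit of factor XIII, had at most 4 counts in any library and was not tested.

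Both genes are products of endothelium or blood cells, so markers of those cells were set beside them. Of 16 endothelial markers 9 were tested, and 2 rose and 3 fell in each culture with IFN-gamma. Their summed level was 160 to 168 CPM in Ifngr1-KO ULA cells against 151 to 166 CPM in sgNTC ULA cells, and 48.2 to 52.7 CPM in Ifngr1-KO adherent cells against 61.9 to 64.5 CPM in sgNTC adherent cells. Flt1 made up most of these sums. It averaged 142 CPM in Ifngr1-KO ULA cells against 130 CPM in sgNTC ULA cells, and 43.4 CPM in Ifngr1-KO adherent cells against 48.1 CPM in sgNTC adherent cells. Esam, an endothelial junction protein, fell by 0.85 in ULA and 1.18 in adherent culture. Robo4 fell by 5.00 in ULA culture, at only 0.0334 CPM in Ifngr1-KO cells against 1.09 CPM in sgNTC cells. Angpt2 rose by 1.10 in ULA culture and fell by 1.81 in adherent culture. Egfl7 was called higher in adherent culture, at 0.191 CPM in Ifngr1-KO cells against no count in sgNTC cells. The defining genes Cdh5 and Kdr had at most 4 and 1 counts in any library.

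Macrophage markers summed to 26.4 to 37.7 CPM in Ifngr1-KO ULA cells against 18.9 to 21.2 CPM in sgNTC ULA cells with IFN-gamma, and to 14.8 to 17.8 CPM in Ifngr1-KO adherent cells against 14.1 to 14.7 CPM in sgNTC adherent cells. Of 13 markers 5 were tested, with 1 rise and 1 fall in each culture. Cd68, a lysosomal glycoprotein gene, rose by 1.52 in ULA and 1.22 in adherent culture. Mertk fell by 0.86 in ULA culture. Mrc1 fell by 1.73 in adherent culture, at 0.301 CPM in Ifngr1-KO cells against 1.02 CPM in sgNTC cells. Ptprc and Adgre1, which define leukocytes and macrophages, had at most 6 and 4 counts in any library. Megakaryocyte and platelet markers summed to 6.09 to 6.59 CPM in Ifngr1-KO ULA cells against 7.15 to 9.33 CPM in sgNTC ULA cells, and to 3.04 to 3.93 CPM in Ifngr1-KO adherent cells against 2.41 to 3.25 CPM in sgNTC adherent cells. Of 11 such markers 4 were tested, and 1 rose in each culture, Ppbp by 2.41 in ULA at no more than 0.595 CPM in any library, and Itga2b by 0.86 in adherent culture. Pf4 had at most 8 counts in any library.

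Fibroblast and pericyte markers summed to 97.5 to 101 CPM in Ifngr1-KO ULA cells against 109 to 117 CPM in sgNTC ULA cells, and to 38.5 to 44.4 CPM in Ifngr1-KO adherent cells against 88.4 to 108 CPM in sgNTC adherent cells. Of 2 tested out of 8, Col1a1 fell by 1.82 in ULA and 1.02 in adherent culture and Dcn by 1.51 in adherent culture. The 6 lymphocyte markers summed to at most 0.157 CPM in Ifngr1-KO ULA cells against 0.554 CPM in sgNTC ULA cells, and to at most 0.394 CPM in Ifngr1-KO adherent cells against 0.257 CPM in sgNTC adherent cells, with 1 tested and none called in either culture. The ovarian surface and mesothelial markers, listed for the labelled ovarian cancer cells, summed to 4268 to 4470 CPM in Ifngr1-KO ULA cells against 2519 to 2588 CPM in sgNTC ULA cells, and to 1815 to 1944 CPM in Ifngr1-KO adherent cells against 1912 to 2179 CPM in sgNTC adherent cells. Krt19 was the largest part of the ULA sums, at 2109 CPM in Ifngr1-KO cells against 1191 CPM in sgNTC cells. Epcam had no count and Pax8 at most 8 counts in any library. Krt7 reached at most 0.514 CPM and Cdh1 at most 1.02 CPM. Of 8 tested out of 10, 4 rose and 1 fell in ULA culture and 1 rose and 4 fell in adherent culture. The mesothelial surface protein gene Msln rose by 0.97, Krt8 by 1.11 and Krt18 by 0.64 in ULA culture. In adherent culture Upk3b fell by 5.22, Wt1 by 0.45 and Krt8 rose by 0.55. Upk3b was low in ULA culture too, at 0.162 CPM in Ifngr1-KO cells against 2.53 CPM in sgNTC cells with IFN-gamma. Msln was at 575 CPM in Ifngr1-KO adherent cells against 624 CPM in sgNTC adherent cells with IFN-gamma. The part of any of these marker lists in the levels of the 5 genes was not tested, and in bulk RNA a change in the number of cells of a kind and a change in RNA per cell cannot be told apart.

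Cd44, the hyaluronan receptor, was the most abundant of the 5 per length and had the smallest line difference in adherent culture. It was at 533, 608 and 539 CPM in Ifngr1-KO ULA cells with IFN-gamma, against 192, 196 and 203 CPM in sgNTC ULA cells with IFN-gamma. In adherent culture it was at 193, 210 and 201 CPM in Ifngr1-KO cells with IFN-gamma, against 143, 160 and 152 CPM in sgNTC cells with IFN-gamma. Only the Ifngr1-KO ULA libraries stood far from the rest, since adherent Ifngr1-KO cells and ULA sgNTC cells overlapped. The log2 difference was 1.51 ± 0.0539 (SE) in ULA culture (adjusted p 4.58e-22) and 0.41 ± 0.0534 in adherent culture (adjusted p 9.44e-08). In PBS it was at 543, 552 and 563 CPM in Ifngr1-KO ULA cells against 179, 192 and 195 CPM in sgNTC ULA cells, and at 204, 210 and 203 CPM in Ifngr1-KO adherent cells against 145, 137 and 134 CPM in sgNTC adherent cells. The PBS differences were 1.55 and 0.57, so in adherent culture Cd44 was only moderately raised in the line it was picked for.

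Of 22 genes for hyaluronan turnover and CD44 partners, 19 were tested. With IFN-gamma, 7 rose and 6 fell in Ifngr1-KO ULA cells against sgNTC ULA cells (median -0.05 against -0.03 over all genes), and 2 rose and 6 fell in adherent culture (-0.19 against -0.01). In ULA culture Msn, which links CD44 to the actin cortex, rose by 0.57, Hmmr, another hyaluronan-binding protein, by 0.88, and the hyaluronidase gene Hyal1 by 1.64. In adherent culture Spp1, osteopontin, a CD44 ligand, fell by 0.33, and Tnfaip6, which modifies hyaluronan, by 1.46. Lyve1, a relative of CD44, fell by 3.41 there at less than 1 CPM in either line. In ULA culture Spp1 lay the other way, at 3100 CPM in Ifngr1-KO cells against 2453 CPM in sgNTC cells. Msn also lay the other way in adherent culture, at 915 CPM in Ifngr1-KO cells against 983 CPM in sgNTC cells.

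The effect of culture differed among the genes. With IFN-gamma, 4 of the 5 rose in Ifngr1-KO ULA cells against Ifngr1-KO adherent cells, where 29.3% of tested genes were called higher: F13a1 by 1.71 ± 0.0948, Pxdn by 1.61 ± 0.133, Cd44 by 1.48 ± 0.0538 and Vwf by 1.33 ± 0.136 on the log2 scale (SE, edgeR's quasi-likelihood test, largest adjusted p 1.33e-08). Wnt7b did not pass (-0.19, 95% interval -0.59 to 0.20, adjusted p 0.408). In sgNTC cells with IFN-gamma, where 32.6% of genes were called higher in ULA culture and 32% lower, Vwf rose by 1.99 ± 0.163, F13a1 by 1.53 ± 0.118, Pxdn by 0.65 ± 0.207 and Cd44 by 0.38 ± 0.0535, and Wnt7b fell by 2.42 ± 0.496 (adjusted p 6.47e-05). The call for Pxdn in sgNTC cells (adjusted p 0.00622) was the weakest of these, with overlapping libraries, and without sgNTC ULA IFN-gamma replicate 2 the difference was 0.38 with an adjusted p of 0.127. In a fit of the compared groups alone its adjusted p was 0.0780. The same culture differences in PBS are given without a test. In sgNTC cells they were 2.23 for Vwf, 1.68 for F13a1, 1.37 for Pxdn, 0.44 for Cd44 and -0.68 for Wnt7b. In Ifngr1-KO cells they were 1.73 for F13a1, 1.60 for Pxdn, 1.43 for Cd44, 1.32 for Vwf and -0.03 for Wnt7b.

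**Figure D4:**
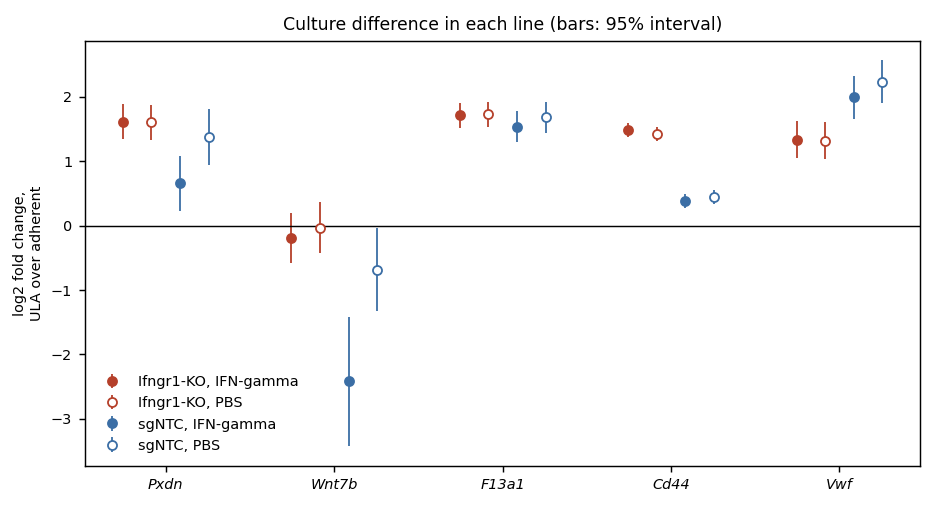
Log2 fold change of ULA over adherent culture for each gene, red for Ifngr1-KO and blue for sgNTC, filled for IFN-gamma and open for PBS, with 95% intervals of the fit. F13a1 moves alike in both lines, Cd44 rises by 1.48 in Ifngr1-KO cells and by 0.38 in sgNTC cells with IFN-gamma, and Wnt7b is lower in ULA culture in sgNTC cells.

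Whether the line difference itself depended on culture was tested in the IFN-gamma libraries as the line difference in ULA less that in adherent culture, a contrast in which 32.3% of tested genes were called, 19% positive and 13.3% negative. Of all called genes 58.8% were positive, but 38.1% were when library totals replaced TMM factors, since the median of all genes was -0.12 on the log2 scale under that scaling and 0.003 with TMM factors. The 4 calls among the 5 genes held under that scaling. Cd44 had the most precise difference, 1.10 ± 0.0753 (SE, adjusted p 1.95e-13): the excess in Ifngr1-KO cells was larger in ULA culture. Wnt7b differed by 2.23 ± 0.540 (adjusted p 0.00148), which rests on the 2, 2 and 6 counts of sgNTC ULA cells. Pxdn differed by 0.96 ± 0.248 (adjusted p 0.00281), and by 0.72 with an adjusted p of 0.0515 without sgNTC adherent IFN-gamma replicate 1.

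Vwf went the other way, with a line difference smaller in ULA culture by 0.65 ± 0.212 (difference -0.65, adjusted p 0.0213). That call was lost when any of 5 libraries was left out: the difference was -0.45 (adjusted p 0.0729) without Ifngr1-KO adherent IFN-gamma replicate 1, the library at 39.5 CPM, -0.58 (0.0689) without sgNTC adherent IFN-gamma replicate 2, -0.59 (0.0632) without sgNTC adherent IFN-gamma replicate 3, -0.58 (0.0634) without Ifngr1-KO ULA IFN-gamma replicate 2 and -0.54 (0.0726) without sgNTC ULA IFN-gamma replicate 1. F13a1 did not pass (0.18, 95% interval -0.14 to 0.49, adjusted p 0.415). The same quantity in PBS, given without a test, was 0.98 for Cd44, 0.65 for Wnt7b, 0.23 for Pxdn, 0.05 for F13a1 and -0.92 for Vwf. Cd44 and Vwf thus had PBS values near or beyond those with IFN-gamma, whereas the PBS values of Pxdn and Wnt7b lay well below those with IFN-gamma.

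The values with IFN-gamma were also set beside those with PBS in the same line and culture. The PBS libraries that chose the genes are one side of this comparison, so it is given for the 5 genes as a description with no test. In Ifngr1-KO cells the fitted differences, IFN-gamma less PBS, ran from -0.18 (Wnt7b) to 0.08 (Vwf) in ULA culture and from -0.06 (F13a1) to 0.07 (Vwf) in adherent culture on the log2 scale. The widest 95% interval there was that of Wnt7b in ULA culture, from -0.58 to 0.21. Over all tested genes edgeR's quasi-likelihood test called 0% in Ifngr1-KO ULA cells and 0.00684% in Ifngr1-KO adherent cells. DESeq2 called 1 and 25 genes in these comparisons, and 1103 and 1215 genes had an unadjusted p under 0.05.

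In sgNTC adherent cells, where 0.315% of tested genes were called, Pxdn averaged 1.16 CPM with IFN-gamma against 0.806 CPM with PBS (log2 difference 0.59), and Cd44 averaged 152 CPM with IFN-gamma against 139 CPM with PBS (0.13). In sgNTC ULA cells 2.05% of genes were called, with 0.739% of all tested genes lower with IFN-gamma. Wnt7b had 2, 2 and 6 counts there in the IFN-gamma libraries against 13, 25 and 25 counts in the PBS libraries, without overlap. Its log2 difference was -2.27, and -2.05 without sgNTC ULA IFN-gamma replicate 2. The differences of F13a1 and Vwf in sgNTC ULA cells were -0.19 and -0.25. Whether the Wnt7b difference itself differed between the lines was not tested.

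Each gene's profile over the means of the 8 groups, as log2(CPM + 0.1) centred on its own mean, was set against 10012 other tested genes that reached 5 CPM in at least 1 group. The measure of likeness was the root mean square difference, smaller being more alike. Kcnh1, a voltage-gated potassium channel gene, was nearest to both Pxdn (0.118) and F13a1 (0.244). It averaged 8.36 CPM in Ifngr1-KO ULA cells against 0.526 CPM in sgNTC ULA cells with IFN-gamma. Npnt, a basement membrane integrin ligand (0.616), and the R-spondin receptor gene Lgr6 (0.666) followed for Pxdn, and the chemokine gene Ccl2 (0.570) and Lgr6 (0.619) for F13a1. Sik1, a salt-inducible kinase gene, was nearest to Cd44 (0.161), followed by the sulfotransferase gene Chst1 (0.163) and Tiparp, an ADP-ribosyltransferase gene (0.172).

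The growth factor receptor gene Fgfr2 was nearest to Vwf (0.326), followed by the cytidine deaminase gene Cda (0.334) and the thrombospondin gene Thbs3 (0.350). Wnt7b had no close match: its nearest gene, the transcriptional regulator Eya1, was at 0.802, and Npnt and Kcnh1 followed at 0.940 and 1.13. Among the 5 genes themselves the closest pair was Pxdn and F13a1 at 0.320 and the farthest Wnt7b and Cd44 at 1.84. These are descriptions over 8 group means that share their libraries.

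With IFN-gamma, the nearest tested genes around Pxdn, Wnt7b, F13a1 and Vwf had smaller line differences than the gene they flank. Some were far off: those around Pxdn lay 566768 to 1255433 bases away, and those after Vwf 1135042 to 1236371 bases away. The 3 nearest tested genes on either side of each, 30 in all, had a median line difference with IFN-gamma of 0.16 in ULA culture, with 11 called higher and 3 lower, and of 0.13 in adherent culture, with 9 called higher and 3 lower. Over all tested genes 27.6% were called higher in ULA and 20.2% in adherent culture, and 27.2% and 23.1% were called lower. Atxn10, 72225 bases from Wnt7b, rose by 0.59 in ULA and 0.48 in adherent culture. Cd9, 51983 bases from Vwf, rose by 0.40 and 0.53, and Pdhx, 119410 bases from Cd44, by 0.64 and 0.47. The predicted gene Gm47675, 2553 bases from F13a1, rose by 2.06 in ULA and 2.74 in adherent culture at no more than 25 counts in any library, and its line difference in PBS was 4.03 in ULA culture, above the 3.36 of F13a1, and 0.95 in adherent culture. Counting used no strand. AU022754 overlaps Wnt7b and had at most 8 counts in any library, Gm30489 and Gm49144 overlap F13a1 with at most 31 and 2 counts, and Pxdn, Cd44 and Vwf overlap no other counted feature.

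**Figure D5:**
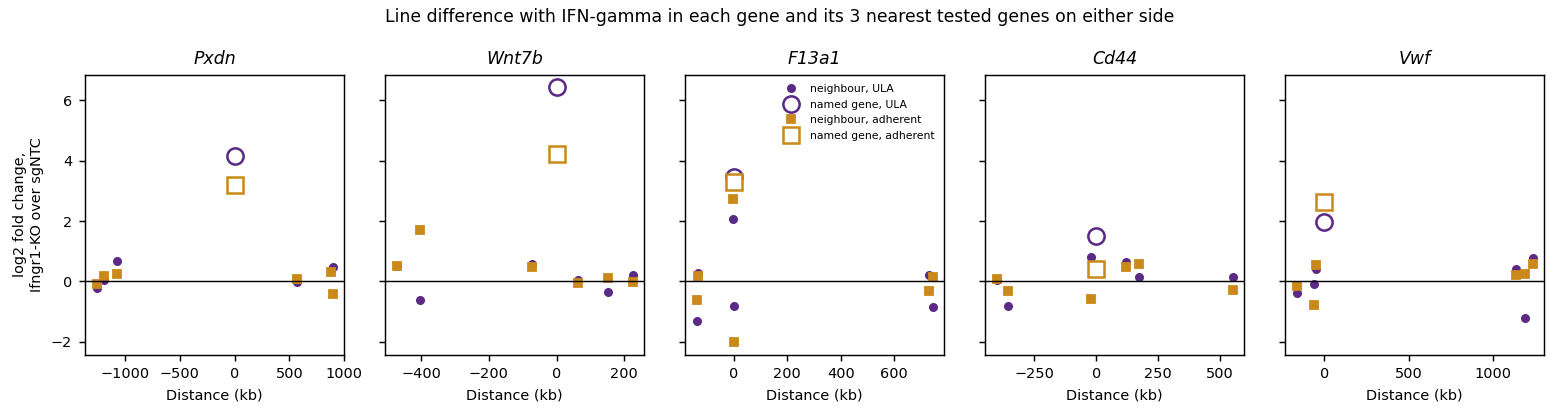
Log2 fold change of Ifngr1-KO over sgNTC with IFN-gamma for each of the 5 genes (large open symbols at 0) and for its 3 nearest tested genes on either side (small filled symbols), against the distance between gene ends in kb, with circles for ULA and squares for adherent culture; negative distances are at lower coordinates. Except for 2 genes near Cd44 in adherent culture, the neighbours lie below the gene they flank, which was itself chosen for a high line difference.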

How the data were processed

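Gene counts came from 24 poly-A RNA libraries, with totals of 33494774 to 63154942. The authors deposited raw counts per gene. Per the file headers they were made with featureCounts v2.1.1 on exons in paired-end mode, without strand, without multi-mapping reads and with each mate counted. Trimmomatic, HISAT2, SAMtools, DESeq2 and the GRCm38 (mm10) build are named in the submitters' processing notes; no further versions are given there. Symbols were found for 30934 of 31062 features, and positions were those deposited with the counts. Replicates are biological replicates per the labels.

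Genes passing filterByExpr (minimum count 10; 14622 genes) were fitted in edgeR 4.0.16 under R 4.3.3 with 1 mean per group over all 24 libraries, TMM factors (0.958 to 1.05), robust quasi-likelihood dispersion and 16 residual degrees of freedom. Tests were two-sided, with Benjamini-Hochberg adjustment per comparison and calls at 0.05. SE and 95% intervals come from that fit. The pipeline was tested on simulated data. RPKM is CPM per kilobase of counted exon length. Alternatives were library totals, DESeq2 1.42.0, no filter, only the compared groups, a replicate block, halved counts and leaving out each library.

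The 5 genes and the 14 gene lists (205 entries) were chosen with earlier results of these data known. List genes named are the first 3 called genes of each list by adjusted p, in each line comparison with IFN-gamma. A few others were chosen after their values were seen: Col4a1, Wnt6, Wnt7a, F13b, and the cell markers and neighbours singled out for low counts or size. So were the Wnt receptor and target genes named as untested or without counts. The same holds for the levels of Fzd5, Plaur, Spp1, Msn, Msln and Upk3b given for their other culture. The 3 most alike genes of each member are named. One list gene that the rule names, and 1 of the lists, are not reported here. The libraries of Ifngr1-KO ULA IFN-gamma replicate 2 and Ifngr1-KO adherent PBS replicate 3 stood farthest from their group, at a chi-square per gene of up to 27.5 and 21.2, against 5.55 at the lowest pair of replicates.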

Additional observations from a re-analysis of the deposited data

Results flagged for a closer look

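For 4 of the 5 genes the difference between Ifngr1-KO and sgNTC cells with IFN-gamma was itself different between ULA and adherent culture, by edgeR's quasi-likelihood test of that contrast with Benjamini-Hochberg adjustment. On the log2 scale, ULA less adherent, it was 0.96 for Pxdn (adjusted p 0.00281), 2.23 for Wnt7b (adjusted p 0.00148), 1.10 for Cd44 (adjusted p 1.95e-13) and -0.65 for Vwf (adjusted p 0.0213). Over all tested genes 32.3% were called in this contrast, so 4 of 5 is set against a contrast with many calls. The calls for Pxdn and Vwf were lost without single libraries, at 0.72 (adjusted p 0.0515) for Pxdn without sgNTC adherent IFN-gamma replicate 1 and at -0.45 (adjusted p 0.0729) for Vwf without Ifngr1-KO adherent IFN-gamma replicate 1. The call for Wnt7b rests on 2, 2 and 6 counts in the sgNTC ULA libraries with IFN-gamma. In PBS the same quantity, given without a test, was 0.23 for Pxdn, 0.65 for Wnt7b, 0.98 for Cd44 and -0.92 for Vwf.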

How the results depend on the processing

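All 10 calls of a higher level in Ifngr1-KO cells with IFN-gamma (5 genes, 2 cultures) kept their direction and passed the threshold in all 12 alternatives run for each. The smallest such difference, Cd44 in adherent culture, ran from 0.37 to 0.46 and the largest, Wnt7b in ULA culture, from 6.22 to 7.12. Calls that were lost elsewhere are given with their values beside those results, and the cause was not tested. The counts of genes called for IFN-gamma moved most. In Ifngr1-KO adherent cells 1 gene was called, 31 with no filter, 0 with only the compared groups, 25 with DESeq2 and 0 to 3 without single libraries. In Ifngr1-KO ULA cells 0 were called, and 33, 1, 1 and 0 to 5 under the same alternatives. In sgNTC adherent cells 46 were called, and 175, 101, 83 and 25 to 40. In sgNTC ULA cells 300 were called, 652 with no filter, 482 with DESeq2 and 127 to 346 without single libraries. No call among the 5 genes is given for IFN-gamma against PBS, because the PBS libraries chose them. In a fit of the sgNTC ULA groups alone, Wnt7b was below the count filter. Pairing of libraries by replicate number was not clear (correlations of deviations from -0.44 to 0.35, over 0.1 for 9 of 24 pairs). With 3 libraries a group, these correlations cannot exclude a pairing. The replicate block left 7984 genes called between lines in ULA culture with IFN-gamma, against 8019 without it, and 296 for IFN-gamma in sgNTC ULA cells. Depth limits Wnt7b and Pxdn in sgNTC cells, with 2 to 32 and 30 to 125 counts a library.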
